A study of Homo sapiens with 120 samples.

Results

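The antisense RNA genes described here are the rows of the deposited gene table whose name ends in -AS1 and whose estimated count averaged at least 100 over the 120 libraries. There were 131 of them among 57665 rows, and 906 further -AS1 rows lay below that limit. The name says that a gene lies on the strand opposite a neighbour, here called its partner, and the partner is the row with the same name without -AS1 (STARD4 for STARD4-AS1). The members were thus chosen by name and by their mean count over all libraries, not by any comparison. PPP1R26-AS1 (mean 100.0 counts), RNF139-AS1 (101.5) and BOLA3-AS1 (101.7) were just inside it, and RARA-AS1 (95.5), RASAL2-AS1 (95.3) and FAM83H-AS1 (94.7) were just outside. In the 30 untreated libraries alone 114 of the members averaged 100 counts or more. The other 17 were admitted through treated libraries, so any rise of theirs is in part built into the choice. Among them were LURAP1L-AS1 with 13.5 counts, KLHL30-AS1 with 5.5 and ATP13A4-AS1 with 0. The rest averaged 61.3 to 97.6 counts untreated. They were CELF2-AS1, CEBPB-AS1, CFLAR-AS1, PAX8-AS1, ZBED3-AS1, UCKL1-AS1, JHDM1D-AS1, STARD7-AS1, SRP14-AS1, PPP1R26-AS1, SPAG5-AS1, ZNF436-AS1, OSER1-AS1 and NR2F2-AS1.

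The cells were U2OS, a human osteosarcoma line, in 2 forms: Parental, and Dmr-PERK, which stably carries the kinase domain of mouse PERK joined to the dimerization domain DmrB. PERK is one of the kinases that phosphorylate the translation initiation factor eIF2α, the step that starts the integrated stress response, and in Dmr-PERK cells the ligand AP20187 (the dimerizer, 0.2 nM in the series text and a slightly lower figure in the sample labels) switches the fused kinase on. Each form was left untreated or given dimerizer, 100 nM thapsigargin (which empties the calcium store of the endoplasmic reticulum, ER) or 0.05 mM arsenite (an oxidative stress), in triplicate wells. Treatment lasted 2, 4, 8, 16 or 24 h, untreated cells were taken at 0, 4, 8, 16 and 24 h, and this made 40 groups of 3. The labels do not give the promoter of the construct, whether Dmr-PERK is 1 clone, or whether each well was a culture of its own, and the p-values reflect well-to-well spread, which may be technical.

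Antisense genes make long RNAs that mostly code for no protein, and many start from the same short stretch of DNA as a protein-coding neighbour transcribed the other way. Some are known to act on the neighbour, for example by recruiting chromatin proteins or by pairing with its RNA, others act elsewhere in the cell, and for many no function is known. In the stress response, translation of most messages falls while the factors ATF4, CHOP and C/EBPβ switch on their target genes, several through a composite C/EBP-ATF element in the promoter.

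Library totals ran from 1.29e+07 to 5.65e+07 estimated counts with a median of 2.23e+07. Of the osteoblast-lineage transcripts, SPARC (484 to 1636 TPM) and COL1A1 (69 to 1292 TPM) were present in every library. RUNX2 and ALPL had medians of 13.2 and 9.55 TPM. BGLAP (1.28 TPM) and COL1A2 (0.277 TPM) had low medians, and IBSP and SP7 had medians at the floor of the TPM table. Of 6 blood-cell markers 4 had a median count of 0 (CD3E, HBB and LYZ among them). CD14 had a median count of 3 and PTPRC one of 17 (0.448 TPM). Of the epithelial markers, KRT14 had the highest median, 4.51 TPM. 1 library, Parental arsenite 24 h replicate 3, stood apart from its replicates (highest correlation with a replicate 0.963, against 0.984 or more in the others). Counts that move by over 1.5 times without it are given beside the result or in the closing section on processing.

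The library kit marks the strand, but no source used here says whether the counting took strand into account. Without strand, reads from a gene and its antisense partner cannot be told apart where their exons overlap, and the positions show how often that applies. Of the 131 genes, 128 had a partner row, 118 were found in GENCODE 29 (GRCh38) under the same identifier and version, and 106 pairs had both positions. In 51 pairs the genes lay head to head (opposite strands, starts within 1000 bases), in 54 they overlapped with starts farther apart, and FOXD2-AS1 lay apart from FOXD2. Exons shared at least 1 base in 73 of the 106 pairs. GENCODE 29 types 75 of the members as antisense, 21 as processed transcripts and 19 as lincRNA.

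Levels per transcript length (TPM) were low for most members. The mean over all libraries ran from 1.58 to 549 TPM with a median of 11 TPM, and the partner had the higher mean in 84 of 128 pairs. LRRC75A-AS1, a host gene of small nucleolar RNAs, was by far the most abundant (549 TPM), followed by CYP1B1-AS1 (179 TPM), CCDC144NL-AS1 (110 TPM), PVRL3-AS1 (109 TPM) and APCDD1L-AS1 (94.2 TPM). The summed level of the members in Dmr-PERK wells was 2644 to 2897 TPM untreated, 2992 to 3243 TPM with dimerizer, 3178 to 3756 TPM with thapsigargin and 2724 to 3331 TPM with arsenite. The dimerizer and thapsigargin sums lay above all untreated sums, and the arsenite sums overlapped them. In Parental wells the sums were 2542 to 2732 TPM untreated and 2562 to 2683 TPM with dimerizer, ranges that overlapped, 2795 to 3587 TPM with thapsigargin, all above the untreated sums, and 2304 to 2764 TPM with arsenite. Much of this was LRRC75A-AS1. Without it the Dmr-PERK sums were 2218 to 2400 TPM untreated, 2285 to 2558 TPM with dimerizer, 2410 to 2847 TPM with thapsigargin and 2261 to 2938 TPM with arsenite, so that of the 3 treatments only thapsigargin had every sum above the untreated range. In Parental wells without it the thapsigargin sums (2067 to 2720 TPM) overlapped the untreated ones (2068 to 2266 TPM).

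RefSeq promoter windows (GRCh38.p14, 250 bases before to 50 after the start) were found for 106 members, 137 windows in all. A few carry the comparisons below and are printed 5′ to 3′ on the strand of the antisense gene. The first is the window of LURAP1L-AS1, chr9:12814340-12814639 on the minus strand, shown because this gene rose in all 3 treatments and its window holds the element that C/EBP-ATF dimers bind. Capitals mark an AP-1 site and the C/EBP-ATF element, which ends 32 bases before the start.

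LURAP1L-AS1: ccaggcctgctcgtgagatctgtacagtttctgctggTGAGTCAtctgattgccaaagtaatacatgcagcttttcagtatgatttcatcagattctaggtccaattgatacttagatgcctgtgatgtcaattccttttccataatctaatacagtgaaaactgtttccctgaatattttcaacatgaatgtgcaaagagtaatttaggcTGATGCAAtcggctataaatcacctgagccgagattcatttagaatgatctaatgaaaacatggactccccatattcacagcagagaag

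The next 3 are from head-to-head pairs whose members and partners changed differently. In the window of STARD4-AS1, chr5:111511976-111512275 on the plus strand, capitals mark the first 50 transcribed bases. In those of UBA6-AS1 (chr4:67701028-67701327, plus strand, listed by RefSeq as UBA6-DT) and BAIAP2-AS1 (chr17:81034670-81034969, minus strand, listed as BAIAP2-DT), capitals mark the 222 and 69 bases that also lie in the partner's own window.

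STARD4-AS1: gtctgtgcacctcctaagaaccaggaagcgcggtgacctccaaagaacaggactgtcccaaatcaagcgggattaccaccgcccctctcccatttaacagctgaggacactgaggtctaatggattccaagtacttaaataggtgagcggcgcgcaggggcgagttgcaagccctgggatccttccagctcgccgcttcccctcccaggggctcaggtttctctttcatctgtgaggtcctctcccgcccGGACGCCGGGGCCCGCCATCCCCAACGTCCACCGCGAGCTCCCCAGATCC

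UBA6-AS1: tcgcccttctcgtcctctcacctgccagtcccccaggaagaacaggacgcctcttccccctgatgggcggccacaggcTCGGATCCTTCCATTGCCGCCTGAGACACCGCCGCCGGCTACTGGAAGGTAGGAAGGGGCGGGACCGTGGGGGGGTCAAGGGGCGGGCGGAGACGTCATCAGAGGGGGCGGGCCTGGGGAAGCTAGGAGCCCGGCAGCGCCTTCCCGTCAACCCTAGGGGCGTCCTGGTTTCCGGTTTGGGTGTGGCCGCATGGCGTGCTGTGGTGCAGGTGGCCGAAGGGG

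BAIAP2-AS1: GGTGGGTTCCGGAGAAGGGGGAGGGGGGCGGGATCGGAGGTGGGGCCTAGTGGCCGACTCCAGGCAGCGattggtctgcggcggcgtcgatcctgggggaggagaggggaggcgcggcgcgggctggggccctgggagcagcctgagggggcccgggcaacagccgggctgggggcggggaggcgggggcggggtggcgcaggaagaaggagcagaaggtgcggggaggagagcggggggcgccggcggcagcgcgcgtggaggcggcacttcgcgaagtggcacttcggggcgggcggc

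Across the members' 137 windows, matched on both strands, the C/EBP-ATF element (TTGCATCA) was found in 1, against 0.866% of all 35116 promoter windows. Chromosome 8 was left out of the members' windows but not of the 35116, so the shares are over sets that differ in this. The AP-1 site (TGANTCA) was in 11 windows (8.03%, against 7.71% of all), the antioxidant response element (TGACNNNGC) in 20 (14.6% against 13.3%), the heat shock element (GAANNTTC) in 10 (7.3% against 6.77%), the cAMP response element (TGACGTCA) in 3 (2.19% against 1.85%) and the sterol regulatory element (TCACNCCAC) in 1 (0.73% against 1.13%). No window held the ER stress response element (0.0769% of all windows). The letters of these motifs can overlap, a match is not a bound site, and the windows as a set held them about as often as promoters in general.

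The first question was which antisense genes followed the synthetic kinase alone. Over 4 to 24 h in Dmr-PERK cells, dimerizer raised 62 members and lowered 36, so 74.8% of them were called at an adjusted p under 0.05 in edgeR's quasi-likelihood test, against 55.2% of all 26998 genes tested (27.5% higher and 27.7% lower). The members had to pass the count limit given above, while all genes tested passed only a lower filter. Here and below, shares of members and of all genes are thus not matched for level. Of the 126 partners tested 75.4% were called, and of the tested -AS1 rows below the count limit 34.0% were. Whether antisense genes were called more often than other genes of like level was not tested. The median log2 fold change was 0.08 over the members and -0.03 over all genes. Most changes were small: 8 called members were at least 2-fold higher (2.77% of all genes) and 3 at least 2-fold lower (4.9%). Of the higher ones, KLHL30-AS1, LURAP1L-AS1, JHDM1D-AS1 and ZBED3-AS1 were admitted through treated libraries. The number at least 2-fold higher is thus in part built into the choice. In 11 members all 12 treated wells lay above all 12 untreated wells (5.23% of all genes), and in 5 they lay below (2.86%). The number called grew from 24 at 2 h (17.7% of all genes, and 13 or 8 members without replicate 1 or 2 of each group) to 52 at 4 h (30.2%), 76 at 8 h (37%), 83 at 16 h (43.2%) and 85 at 24 h (48.1%).

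**Figure D1:**
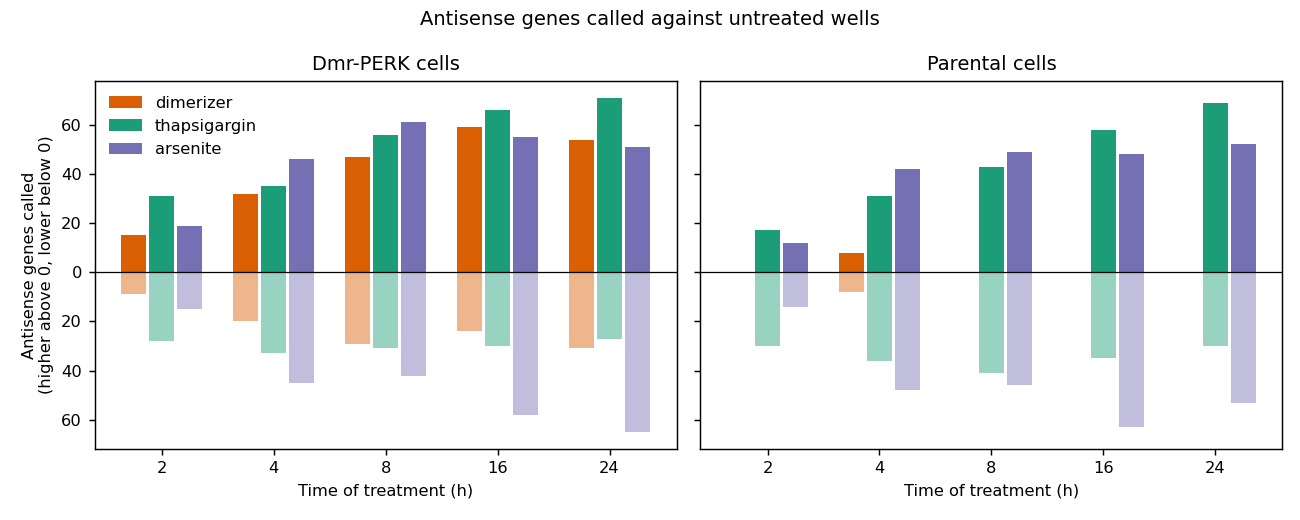
Number of the 131 antisense genes called higher (above 0) and lower (below 0, paler) at each time of treatment (h), for Dmr-PERK and Parental cells, against untreated wells of the same time (0 h for the 2 h wells). In Dmr-PERK cells dimerizer calls rose from 24 at 2 h to 85 at 24 h, while in Parental cells dimerizer calls appeared at 4 h alone (16).

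KLHL30-AS1, which GENCODE types as still to be established and which shares 59 exon bases with KLHL30, a kelch-family gene, had the highest fold change with dimerizer. Its level in the 12 untreated Dmr-PERK wells of 4 to 24 h was 0.0408 to 0.491 CPM (counts scaled to library size) with a median of 0.149, against 0.15 to 3.53 CPM with a median of 1.4 under dimerizer. The ranges overlapped at the low end. The log2 fold change was 0.43 ± 0.57 (SE) at 4 h, where it was not called, and 4.67 ± 0.38 at 16 h. Over 4 to 24 h it was 2.89 ± 0.25 (adjusted p = 4.74e-19), while KLHL30 itself was lower (-0.71).

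LURAP1L-AS1, the gene with the C/EBP-ATF element printed above, had 0.426 to 1.55 CPM untreated (median 0.777) and 1.49 to 9.15 CPM with dimerizer (median 4.68), ranges that overlapped at their edge. Its log2 fold change was 1.58 ± 0.27 at 4 h and 3.32 ± 0.18 at 24 h, and 2.42 ± 0.11 over 4 to 24 h (adjusted p = 1.77e-36). LURAP1L, which encodes a leucine-rich adaptor protein and spans the antisense start, rose by 1.60 on the log2 scale.

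The other 6 of the 8 highest rose by 1.00 to 1.35 on the log2 scale. SH3RF3-AS1 (1.35 ± 0.06) and its head-to-head partner SH3RF3, an SH3-domain ubiquitin ligase, rose alike (1.28 for SH3RF3). SLFNL1-AS1 (1.25 ± 0.05) shares 1298 exon bases with SLFNL1, which rose by 1.49. JHDM1D-AS1 (1.15 ± 0.05) has no partner row under that name. UBA6-AS1 rose by 1.06 ± 0.03 and ZBED3-AS1 by 1.04 ± 0.06, beside 0.09 for UBA6 and 0.29 for ZBED3, neither of which was called on TPM values. EPB41L4A-AS1 (1.00 ± 0.04), a host of a small nucleolar RNA, went from 11.4 to 21.3 CPM untreated to 24.2 to 39.3 CPM with dimerizer, with no overlap.

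STARD4-AS1 fell the most. Untreated Dmr-PERK wells held 5.2 to 11.2 CPM (median 8.88) and dimerizer wells 0.811 to 2.61 CPM (median 2.05) at 4 to 24 h, so every treated well of these times lay below every untreated one. The log2 fold change was -2.20 ± 0.09 over 4 to 24 h (adjusted p = 6.43e-42), against 0.05 ± 0.15 at 2 h. GAS6-AS1, named for the gene of the receptor ligand GAS6, held 34.1 to 97.3 CPM untreated and 15.6 to 25.8 CPM with dimerizer. It fell by 1.60 on the log2 scale (adjusted p = 1.02e-66), and by 2.49 at 24 h, while GAS6 fell by 0.40.

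ARHGAP5-AS1 fell by 1.13 on the log2 scale, with 4.51 to 12.4 CPM untreated and 1.75 to 4.88 CPM treated, ranges that overlapped at the edge, and ARHGAP5 fell by 0.24. Smaller falls were measured for BAIAP2-AS1 (-0.71), CYP1B1-AS1 (-0.64), SERTAD4-AS1 (-0.62), PRR34-AS1 (-0.60) and ZNF436-AS1 (-0.57 ± 0.09).

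**Figure D2:**
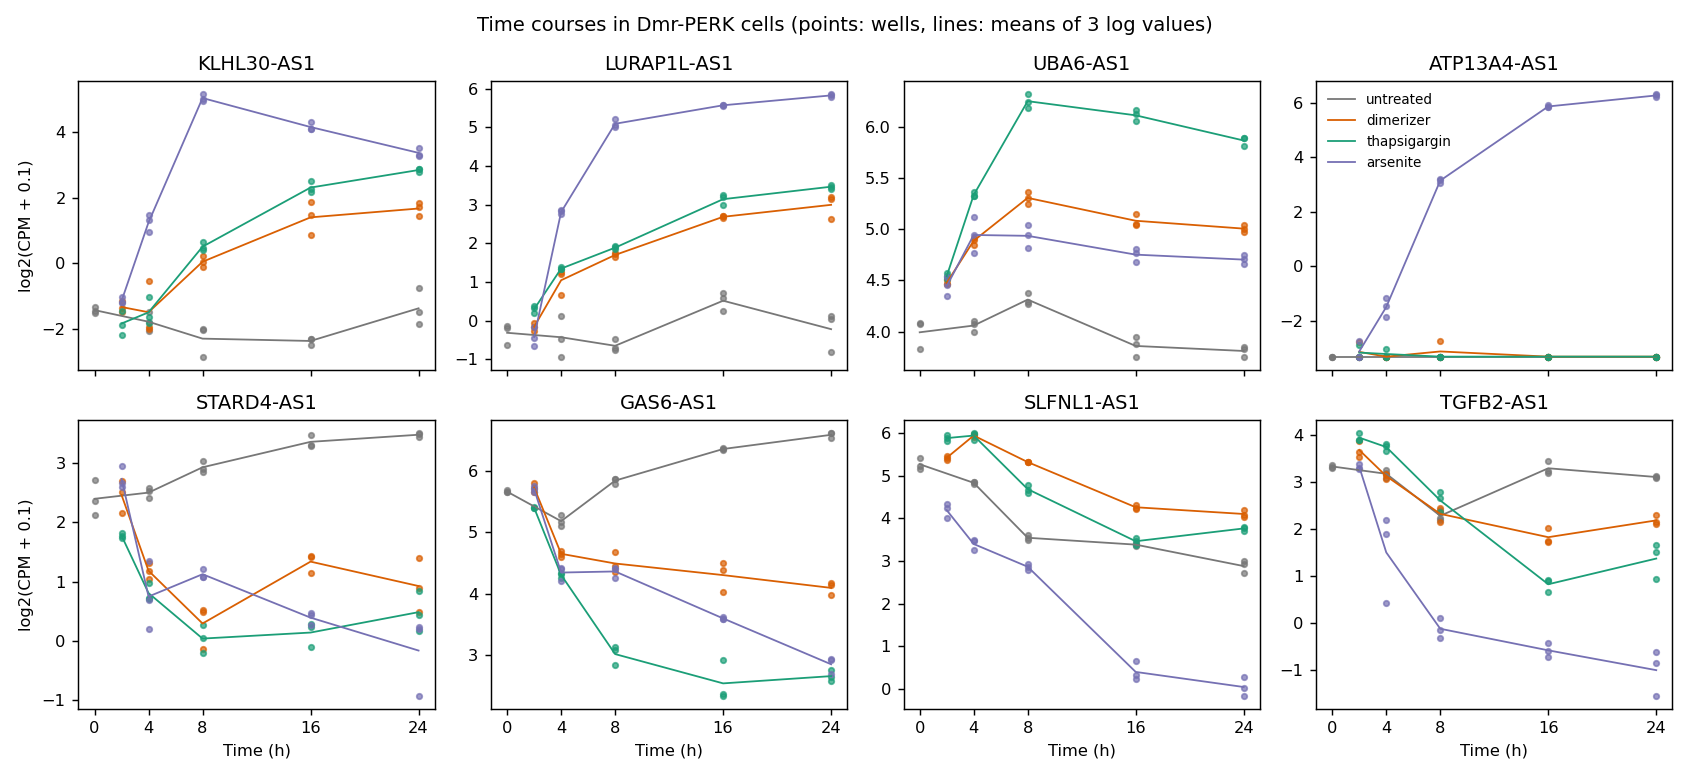
Levels of 8 antisense genes in Dmr-PERK cells, as log2(CPM + 0.1) on the vertical axes, against time (h); points are wells and lines join the means of 3 log values. ATP13A4-AS1 climbed with arsenite and stayed at or near its floor otherwise, STARD4-AS1 and GAS6-AS1 fell under all 3 treatments, and SLFNL1-AS1 rose with dimerizer and fell with arsenite.

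In Parental cells, which lack the construct, dimerizer changed none of the 131 members over 4 to 24 h in the edgeR test (0.582% of all genes called, 0.326% higher and 0.256% lower), 16 members had an unadjusted p under 0.05, and DESeq2 called 0. Without the library that stood apart 1 member, ADIRF-AS1, was called. At 4 h, however, 16 members were called, 8 in each direction, where 7.52% of all genes were. That count was 4 with limma on log2(TPM + 1), 8 without replicate 1 of each group and 6 without replicate 2. Their log2 fold changes were small, from -0.49 (SLFNL1-AS1) to 0.59 (ZNF436-AS1), and at 2, 8, 16 and 24 h none was called, where the share of all genes was 0.178% at 2 h and 0% at the other times and 8, 6, 7 and 11 members had an unadjusted p under 0.05. Tested directly, the effect of dimerizer differed between the lines for 80 members, 50 higher and 30 lower in Dmr-PERK cells (47% of all genes). The differences were largest for KLHL30-AS1 (2.67 ± 0.39 on the log2 scale), LURAP1L-AS1 (2.62 ± 0.32) and SH3RF3-AS1 (1.49 ± 0.10) upward, and for STARD4-AS1 (-2.08 ± 0.11) and GAS6-AS1 (-1.61 ± 0.04) downward.

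Thapsigargin raised 70 members and lowered 38 in Dmr-PERK cells (82.4% of members, against 63% of all genes, 30.9% higher and 32.2% lower), with a median of 0.19 against 0.00 over all genes. KLHL30-AS1 (3.51 ± 0.24) and LURAP1L-AS1 (2.76 ± 0.10) had the highest values. Both were admitted through treated libraries, so their places are in part built into the choice. The comparison also shares its untreated wells with the one for dimerizer. UBA6-AS1 came next: it held 13.4 to 20.7 CPM untreated (median 15.6) and 39.8 to 79.6 CPM with thapsigargin (median 62.8), and rose by 1.88 ± 0.03 (adjusted p = 1.1e-77). Its levels with dimerizer, 28.7 to 40.9 CPM, lay between the untreated range and most thapsigargin wells.

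THAP9-AS1 (1.30), CEBPB-AS1 (1.22), JHDM1D-AS1 (1.22), PSMD5-AS1 (1.16) and EPB41L4A-AS1 (1.11) followed. Of these, CEBPB-AS1 and JHDM1D-AS1 were likewise admitted through treated libraries. GAS6-AS1 fell to 4.99 to 20.2 CPM (-2.86 ± 0.04) and STARD4-AS1 to 0.773 to 1.88 CPM (-2.75 ± 0.09), both without overlap with the untreated wells. SERTAD4-AS1 (-1.55), ARHGAP5-AS1 (-1.48), BAIAP2-AS1 (-1.25) and PRR34-AS1 (-1.06) fell as well, and LOXL1-AS1 (-0.71) and ZNF436-AS1 (-0.68) fell less.

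Parental cells gave similar counts with thapsigargin: 66 members rose and 41 fell (65.1% of all genes, 30.1% higher and 35% lower), with the highest values for KLHL30-AS1 (3.08 ± 0.20), LURAP1L-AS1 (3.06 ± 0.16) and UBA6-AS1 (1.78 ± 0.03) and the lowest for GAS6-AS1 (-2.94 ± 0.04) and STARD4-AS1 (-2.80 ± 0.08). The places of KLHL30-AS1 and LURAP1L-AS1 are in part built into the choice here too. Thapsigargin calls grew with time as well. In Dmr-PERK cells 59 members were called at 2 h (33.2% of all genes, and 39 members with limma on log2(TPM + 1)), 68 at 4 h (39.6%), 87 at 8 h (49.4%), 96 at 16 h (51.5%) and 98 at 24 h (55%). The Parental counts were 47 (29.2%), 67 (40.6%), 84 (49.7%), 93 (56.2%) and 99 (54.6%).

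The effect differed between the lines for 50 members (25.7% of all genes, and 33 or 28 members without replicate 1 or 2 of each group), 37 of them higher in Dmr-PERK cells, and no called difference reached 2-fold (1.76% of all genes). JHDM1D-AS1 (0.60 ± 0.07) and BOLA3-AS1 (-0.75 ± 0.08) marked the ends.

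Over 4 to 24 h arsenite was the treatment with the most members called and the highest fold changes, and the shares called were near those of all genes. In Dmr-PERK cells 58 rose and 59 fell (89.3% of members, against 83.6% of all genes called, 44.4% higher and 39.2% lower), 23 of them at least 2-fold up (25.6% of all genes) and 22 at least 2-fold down (13.9%). The median over the members was -0.02 against 0.12 over all genes. In Parental cells 50 rose and 61 fell (82.1% of all genes, 42.7% higher and 39.4% lower). The split depended on the scaling: with RLE factors, which moved the median of all genes up by 0.108 and 0.113, it was 64 and 51 in Dmr-PERK and 62 and 54 in Parental cells, and with limma on log2(TPM + 1) it was 46 and 70 and 39 and 83.

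Fewer members were called at 2 h of arsenite than at any later time. The counts in Dmr-PERK cells were 34 at 2 h (19.9% of all genes, and 22 or 19 members without replicate 1 or 2 of each group), 91 at 4 h (49.1%), 103 at 8 h (67.4%), 113 at 16 h (78.8%) and 116 at 24 h (81.5%). In Parental cells they were 26 (18.4%, and 17 members without replicate 1), 90 (49.2%), 95 (60.1%), 111 (78.8%) and 105 (80.5%).

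ATP13A4-AS1 had no count in any of the 30 untreated libraries of either line, and its count over all 15 dimerizer wells of Dmr-PERK cells was 2. With arsenite the 3 Dmr-PERK wells held 4, 5 and 7 counts at 4 h, 419, 194 and 109 at 8 h, 1889, 1602 and 1249 at 16 h and 1300, 1278 and 2386 at 24 h. Against 3 counts over the 12 untreated wells of 4 to 24 h, this was at least 24.2-fold higher at 4 h and at least 7130-fold higher at 24 h. Parental wells showed the same order with lower levels, 24, 32 and 41 counts at 8 h and 650, 864 and 423 at 24 h (at least 4990-fold higher). ATP13A4, a P-type ATPase gene that contains the whole antisense gene and shares 349 exon bases with it, rose by 5.34 on the log2 scale.

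KLHL30-AS1 reached 30.6 to 35.1 CPM after 8 h of arsenite in Dmr-PERK cells, where untreated wells held 0.0408 to 0.153 CPM, and then declined to 9.46 to 11.3 CPM at 24 h. Over 4 to 24 h it rose by 6.04 ± 0.14, LURAP1L-AS1 by 5.14 ± 0.08, PAX8-AS1 by 4.18 ± 0.06 and FBXL19-AS1 by 3.51 ± 0.10. PAX8-AS1 was 1.99 to 5.11 CPM untreated and 8.55 to 206 CPM with arsenite, without overlap. ZFPM2-AS1 (3.20), UCKL1-AS1 (2.47) and CFLAR-AS1 (2.41), named for the caspase-8 inhibitor CFLAR, completed the 8 highest. Of these 8, ATP13A4-AS1, KLHL30-AS1, LURAP1L-AS1, PAX8-AS1, UCKL1-AS1 and CFLAR-AS1 were admitted through treated libraries. Their places here are thus in part built into the choice.

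TGFB2-AS1, head to head with the gene of the growth factor TGF-β2, fell the most with arsenite, from 4.51 to 10.8 CPM untreated to 0.245 to 4.48 CPM (-3.12 ± 0.10, adjusted p = 2.04e-49). RUSC1-AS1 (-2.59), STARD4-AS1 (-2.55), FOXD2-AS1 (-2.31), GAS6-AS1 (-2.22), ASB16-AS1 (-2.08), LOXL1-AS1 (-2.06) and SLFNL1-AS1 (-2.01) followed. FOXD2-AS1 went from 19.0 to 22.9 CPM to 2.51 to 9.90 CPM, with no overlap.

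The effect of arsenite differed between the lines for 59 members (42.2% of all genes), 34 of them higher in Dmr-PERK cells. UCKL1-AS1 (0.87 ± 0.10), PSMG3-AS1 (0.72 ± 0.08) and OSER1-AS1 (0.66 ± 0.09) stood at the upper end. CELF2-AS1 (-1.53 ± 0.22) and TSPEAR-AS1 (-1.20 ± 0.10) stood at the lower. The Parental arsenite wells at 24 h held 13.6, 14.8 and 3.44 CPM of CELF2-AS1, the lowest in the library that stood apart, and the difference was -1.63 without it.

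**Figure D3:**
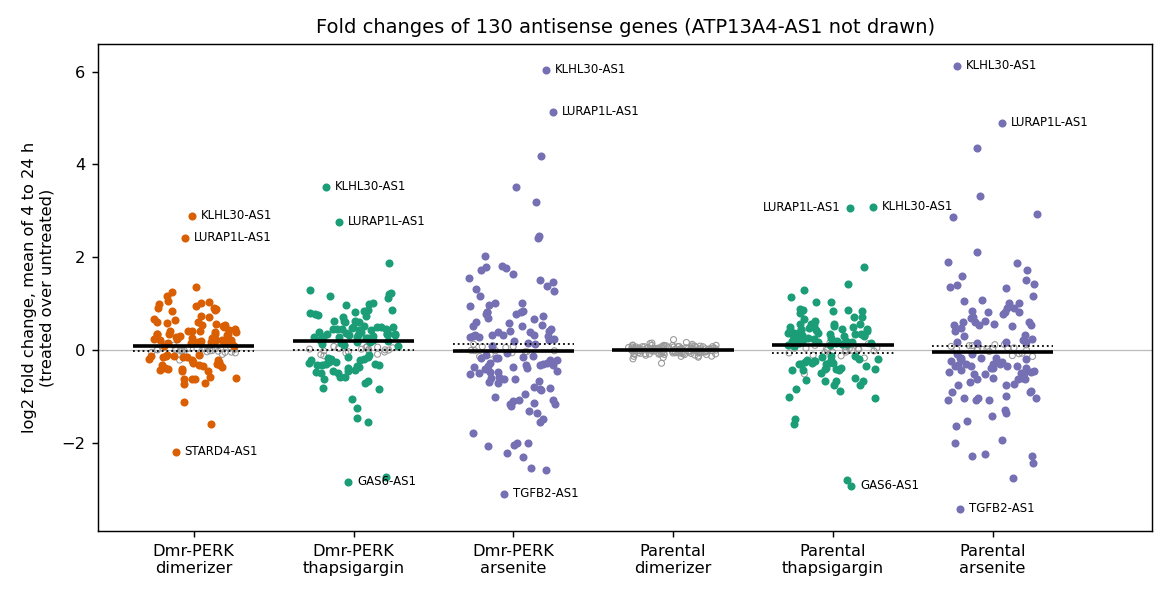
log2 fold change (treated over untreated, mean of 4 to 24 h) of 130 antisense genes in each line and treatment; filled points were called and open ones were not, the solid line is their median and the dotted line the median of all genes tested. ATP13A4-AS1, with no count in untreated wells, is not drawn, and KLHL30-AS1 and LURAP1L-AS1 are the highest drawn in all columns but that of Parental dimerizer.

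Compared directly over 2 to 24 h in Dmr-PERK cells, dimerizer and thapsigargin differed in 75 members (37 higher and 38 lower with dimerizer, 47.1% of all genes) and by at least 2-fold in 1 (2.88% of all genes), GAS6-AS1 (1.07 ± 0.04, less reduced by dimerizer). UBA6-AS1 (-0.67 ± 0.02) and OIP5-AS1 (-0.55 ± 0.02) were lower with dimerizer. Dimerizer and arsenite differed in 119 members (80.4% of all genes) and thapsigargin and arsenite in 120 (80.8%). SLFNL1-AS1 was 2.85 ± 0.06 and PSMD5-AS1 2.08 ± 0.07 higher with dimerizer than with arsenite on the log2 scale, and PAX8-AS1 (-3.90 ± 0.08) and FBXL19-AS1 (-2.72 ± 0.10) were lower.

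Several abundant antisense genes parted the treatments. LRRC75A-AS1 held 201 to 253 CPM untreated in Dmr-PERK cells, 269 to 470 CPM with dimerizer, 263 to 471 CPM with thapsigargin and 182 to 238 CPM with arsenite. Its log2 fold change was 0.74 with dimerizer, 0.74 with thapsigargin and -0.12 with arsenite, and the last was not called with RLE factors (adjusted p = 0.909 in edgeR). EPB41L4A-AS1 followed the same order (1.00, 1.11 and -0.33), although its arsenite value was 0.03 and not called on TPM values, and THAP9-AS1 (0.94, 1.30 and -0.37) too.

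OIP5-AS1, also known as Cyrano and abundant in many cell types, was 67.2 to 79.8 CPM untreated, 58.2 to 65.9 CPM with dimerizer, 80.8 to 109 CPM with thapsigargin and 28.7 to 45.7 CPM with arsenite. None of the treated ranges overlapped the untreated one, and the log2 fold changes were -0.26, 0.34 and -1.02. Of the other panel genes, FGD5-AS1 (-0.45, -0.63 and -0.37) was lower with all 3 treatments, and GABPB1-AS1 (0.23, 0.46 and 0.30) and KTN1-AS1 (0.98, 0.63 and 0.40) were higher. MAPKAPK5-AS1 was 0.32 with dimerizer, 0.35 with thapsigargin and -0.51 with arsenite. PSMA3-AS1 was not called with dimerizer in the edgeR test (0.03), though it was called with limma on TPM values. It rose by 0.19 with thapsigargin and 0.25 with arsenite. SLC7A11-AS1, TMPO-AS1 and HIF1A-AS1 were on the panel but were not among the members.

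The partners show whether a change was shared across the locus. Of 126 pairs with both genes tested, dimerizer in Dmr-PERK cells moved both the same way in 54 and in opposite ways in 19. Thapsigargin did so in 66 and 29 and arsenite in 69 and 32. The share of unrelated gene pairs that move the same way was not computed, so these counts have no baseline. The member alone was called in 22, 9 and 11 pairs and the partner alone in 22, 18 and 13. Across pairs the log2 fold changes had Pearson's r of 0.39, 0.28 and 0.54, values that describe pairs measured in the same libraries. These include ATP13A4-AS1, which had no untreated count and the highest arsenite value, and r without it was not computed. The shares moving together among pairs with both called were 65.2%, 75% and 75% in the 33 pairs whose exons do not overlap, and 76.2%, 67.3% and 66.7% in the 71 whose exons do. Shared reads were not tested as a source of the pairs' likeness.

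Head-to-head pairs differed widely in how far they moved together. TGFB2-AS1 and TGFB2, whose exons do not overlap and whose starts are 557 bases apart, had nearly equal log2 fold changes: -0.62 and -0.57 with dimerizer, -0.83 and -0.84 with thapsigargin and -3.12 and -2.95 with arsenite. CEBPB-AS1 (0.85, 1.22 and 1.78) rose with CEBPB (1.73, 1.91 and 2.15), the gene of the stress-induced factor C/EBPβ. OSER1-AS1 and OSER1 rose in each treatment, by 1.71 and 1.70 with arsenite. CEBPB-AS1 and OSER1-AS1 were admitted through treated libraries, so their rises are in part built into the choice.

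STARD4 encodes a cholesterol transfer protein, and its start lies 364 bases from that of STARD4-AS1, whose window is printed above. The members of this pair went the same way with dimerizer and arsenite and opposite ways with thapsigargin. STARD4 held 46.9 to 60.2 CPM untreated, 11.9 to 44.5 CPM with dimerizer, 15.7 to 57.4 CPM with arsenite and 84.9 to 289 CPM with thapsigargin. Every thapsigargin well lay above every untreated one for STARD4 (1.44 ± 0.03, adjusted p = 9.58e-70), and below for STARD4-AS1. The same split was measured in Parental cells, at 2.13 for STARD4 and -2.80 for STARD4-AS1. The genes share 124 exon bases.

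UBA6-AS1 and UBA6, which encodes a ubiquitin-activating enzyme, start 101 bases apart with no shared exon base. UBA6 stayed at 115 to 132 CPM untreated and 130 to 163 CPM with thapsigargin (0.28 ± 0.03) while the antisense gene rose by 1.88. BAIAP2-AS1 and BAIAP2, the gene of a scaffold protein of the actin cytoskeleton, start 241 bases apart with no shared exon base. With arsenite at 8 h BAIAP2-AS1 fell from 37.8 to 42.4 CPM to 20.6 to 21.6 CPM, and BAIAP2 rose from 57.2 to 59.9 CPM to 250.0 to 262 CPM. Over 4 to 24 h the log2 fold changes were -1.11 for BAIAP2-AS1 and 1.64 for BAIAP2, and with thapsigargin both fell (-1.25 and -0.69).

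Other pairs also parted. APCDD1L-AS1 rose with thapsigargin (0.48) where APCDD1L fell (-1.10), and with arsenite both rose (0.96 and 1.16). FBXL19-AS1 rose by 3.51 with arsenite and FBXL19, an F-box gene, fell by 0.63. SPAG5-AS1 rose by 2.03 and SPAG5, a mitotic spindle gene, fell by 0.47. Among overlapping pairs, KLHL30 fell with dimerizer (-0.71) and thapsigargin (-1.80) where its antisense gene rose, and PAX8-AS1 fell with thapsigargin (-0.59) where PAX8 rose (0.69). With arsenite PAX8-AS1 and PAX8, a transcription factor gene, rose by 4.18 and 4.08. SPAG5-AS1, KLHL30-AS1 and PAX8-AS1 were admitted through treated libraries, so their rises are in part built into the choice.

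**Figure D4:**
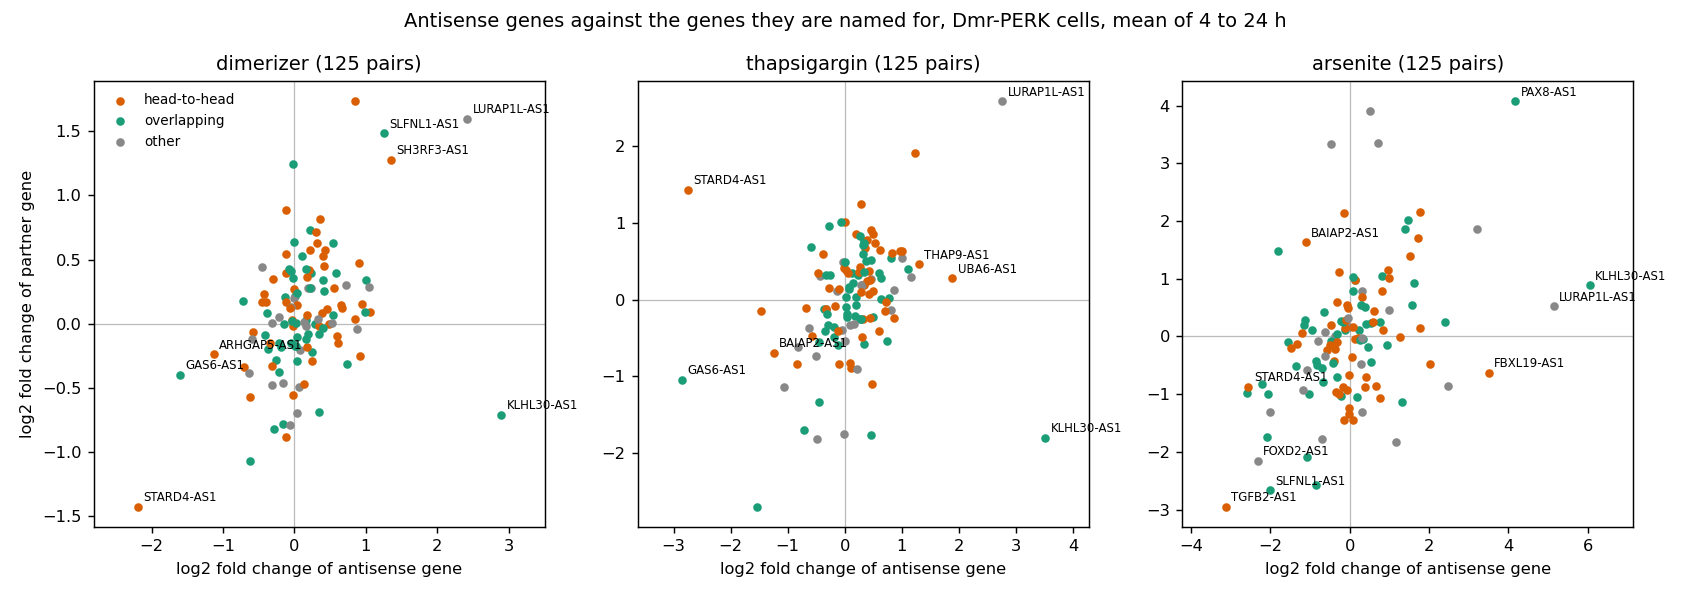
log2 fold change of the partner gene against that of the antisense gene in Dmr-PERK cells (mean of 4 to 24 h), 1 point per pair, coloured by arrangement; 125 pairs, without ATP13A4-AS1. STARD4-AS1 lies at lower left with dimerizer and at upper left with thapsigargin, and TGFB2-AS1 and PAX8-AS1 lie near the diagonal with arsenite.

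**Figure D5:**
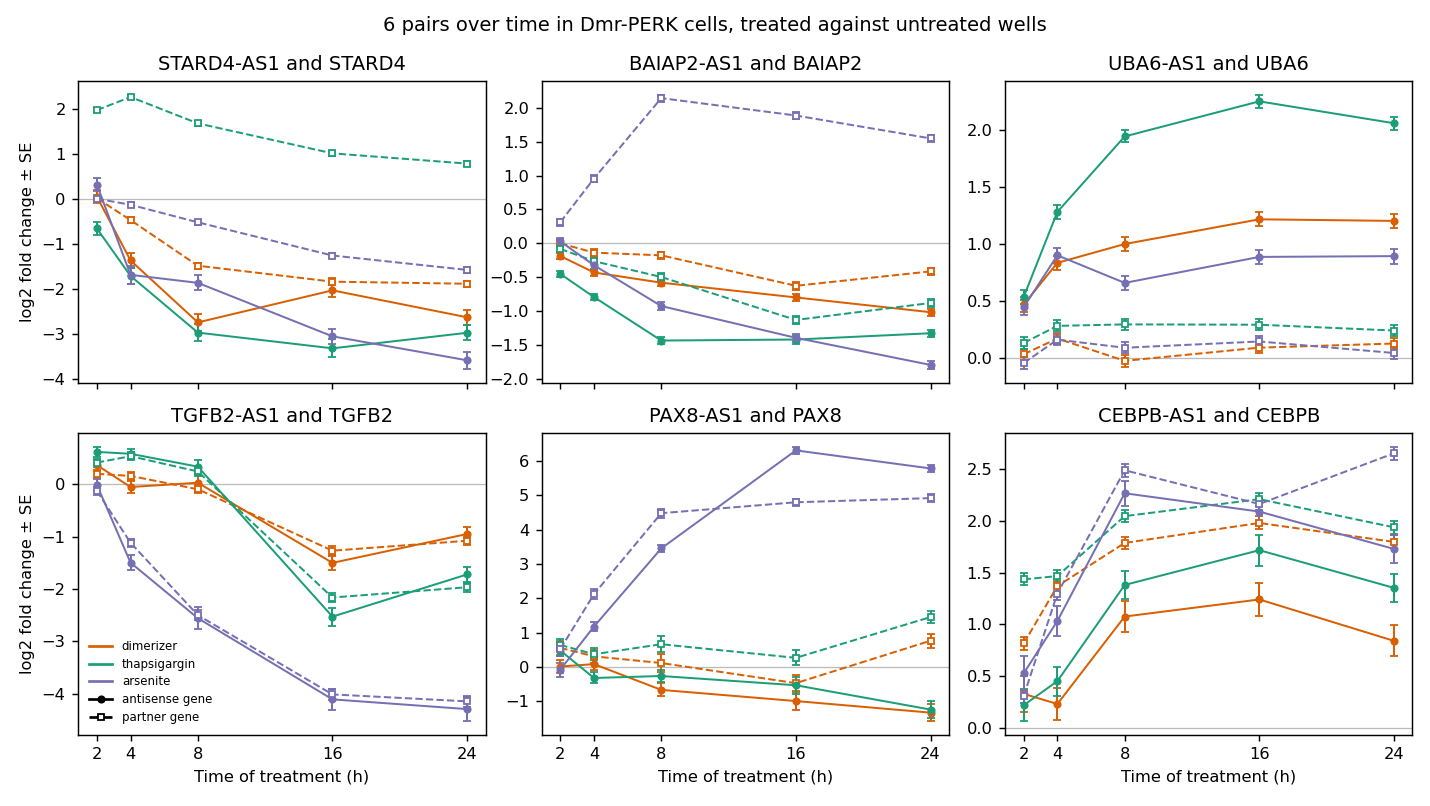
log2 fold change with its SE against time of treatment (h) for 6 antisense genes (filled circles, solid lines) and their partners (open squares, broken lines) in Dmr-PERK cells; 2 h wells are set against untreated wells at 0 h. STARD4 was already 1.97 higher at 2 h of thapsigargin while STARD4-AS1 was 0.66 lower, and the curves of TGFB2-AS1 and TGFB2 nearly coincide.

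Arrangement was set beside the counts. With dimerizer 28 of the 51 head-to-head members rose and 15 fell (median 0.18), and 22 of the 54 overlapping members rose and 14 fell (median 0.04). With thapsigargin these were 31 and 12 (median 0.31) against 27 and 16 (0.13), and with arsenite 21 and 20 (-0.02) against 24 and 28 (-0.14). The shares of all genes called higher and lower, given above, were 27.5% and 27.7% for dimerizer, 30.9% and 32.2% for thapsigargin and 44.4% and 39.2% for arsenite. The difference between the arrangements was not tested.

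Time mattered for most members. The effect changed between 4 and 24 h for 83 members with dimerizer (42.1% of all genes), 102 with thapsigargin (52.2%) and 124 with arsenite (71.2%) in Dmr-PERK cells. In Parental cells it did so for 7 members with dimerizer (3.76%), 94 with thapsigargin (49.9%) and 119 with arsenite (73.1%). FOXD2-AS1 changed sign with thapsigargin, from -1.01 at 8 h to 0.25 at 24 h. TGFB2-AS1 went from 0.58 at 4 h to -2.53 at 16 h of thapsigargin, KTN1-AS1 from 1.15 at 4 h to -0.40 at 24 h of arsenite. APCDD1L-AS1 was 0.44 at 4 h and 1.84 at 24 h of dimerizer.

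Untreated wells were not constant either: 105 members changed with time in the Dmr-PERK line (53.4% of all genes) and 104 in the Parental line (55.4%). At 24 h STARD4-AS1 held 10.7, 11.1 and 11.2 CPM against 7.06 to 8.10 CPM at 8 h, and GAS6-AS1 92.3 to 97.3 CPM against 54.7 to 58.3 CPM, and the fold changes at 24 h are relative to these higher untreated levels.

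The untreated lines themselves differed in 101 members, 56 higher and 45 lower in Dmr-PERK cells (62.5% of all genes), 6 of them at least 2-fold (10.9%). CELF2-AS1, named for an RNA-binding splicing regulator, was 2.43 to 7.88 CPM in the 15 untreated Dmr-PERK wells and 0.174 to 0.686 CPM in Parental wells, without overlap (3.29 ± 0.15). LURAP1L-AS1 (1.76), MSC-AS1 (1.11), CFLAR-AS1 (1.05) and NR2F2-AS1 (0.90) were higher too, and EMC3-AS1 (-1.12), RNF144A-AS1 (-1.005), APCDD1L-AS1 (-0.999), TMEM147-AS1 (-0.95) and FBXL19-AS1 (-0.86) were lower. Since each line may be 1 clone, the construct and other differences between the lines cannot be told apart.

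Antisense rows outside the rule gave a further view. Among the 526 tested -AS1 rows below the limit, dimerizer raised 78 and lowered 101 in Dmr-PERK cells (34% called, against 55.2% of all genes). Thapsigargin raised 125 and lowered 115 (45.6% against 63%). Arsenite raised 271 and lowered 126 (75.5% against 83.6%), with a median of 0.48 against 0.12 over all genes. These rows were called less often than all genes, where the members were called more often. Such rows and the members were split by their mean count, so this contrast cannot be separated from level. The 9 rows ending in -AS, -AS2, -AS3 or -AS4 above the same limit gave 4 higher and 3 lower, 5 and 2, and 3 and 4. This was 77.8% of the 9 in each treatment.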

How the data were processed

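RNA from 120 wells (40 groups of 3) was sequenced with a strand-marking kit, per the labels' protocols. Estimated counts for each gene, and TPM (abundance scaled for transcript length and depth), were deposited by the authors for the same wells. Salmon 0.9.1, FastQC 0.11.5 and GRCh38 are listed in the submitters' processing notes. Estimated counts can be fractional, so they were rounded to whole numbers. No source used here says whether counting took strand into account.

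The rounded counts entered edgeR 4.0.16 (R 4.3.3). Low genes were removed with filterByExpr at a minimum count of 10, which left 26998, and libraries were scaled with TMM factors (0.839 to 1.169). Quasi-likelihood F-tests came from 1 fit over all 40 groups (NB dispersion 0.00142, 80 residual degrees of freedom), with Benjamini-Hochberg adjustment across every gene tested and calls at an adjusted p under 0.05. Values over 4 to 24 h are the mean of 4 differences from untreated wells of the same time, and 2 h was set against untreated 0 h. The code was tested on simulated data. Library totals (1.29e+07 to 5.65e+07) limit precision for members of a few counts.

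Members named were the 8 highest and 8 lowest called per treatment in Dmr-PERK cells with the same sign at all 4 times, the 5 highest and lowest of other comparisons, those of highest TPM or nearest the count limit, a panel of 12, and the partners of these. Others, such as pairs that parted, were chosen after their values were seen. The members and lists were chosen with earlier results of these data known. Alternatives were DESeq2 1.42.0, RLE factors, no filter, limma 3.58.1 on log2(TPM + 1) and log2(TPM + 0.1), the replicate number as a block, each replicate left out, and, chosen after seeing the data, leaving out the library that stood apart. Positions are from GENCODE 29 and promoter windows from RefSeq GRCh38.p14.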

Additional observations from a re-analysis of the deposited data

Results flagged for a closer look

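Effects of a treatment that differed between the lines, by edgeR's test of the difference itself, are listed here for the members at either end, as log2 fold change in Dmr-PERK minus that in Parental cells over 4 to 24 h.

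For dimerizer the highest differences were those of KLHL30-AS1 (2.67), LURAP1L-AS1 (2.62), SH3RF3-AS1 (1.49), SLFNL1-AS1 (1.38) and JHDM1D-AS1 (1.20). The lowest were those of STARD4-AS1 (-2.08), GAS6-AS1 (-1.61), ARHGAP5-AS1 (-1.16), ZNF436-AS1 (-0.74) and CYP1B1-AS1 (-0.70). None of these was called in Parental cells over 4 to 24 h.

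For thapsigargin the differences were smaller. JHDM1D-AS1 (0.60), CFLAR-AS1 (0.47), UCKL1-AS1 (0.43), USP46-AS1 (0.38) and DLGAP1-AS1 (0.38) were higher in Dmr-PERK cells. BOLA3-AS1 (-0.75), PVRL3-AS1 (-0.57), PSMG3-AS1 (-0.47), PRR34-AS1 (-0.39) and OIP5-AS1 (-0.36) were lower. CFLAR-AS1 was not called without replicate 1 (adjusted p = 0.0731) or 2, UCKL1-AS1 without replicate 1 (adjusted p = 0.131) or 3, and PSMG3-AS1 and OIP5-AS1 were not called on TPM values (adjusted p = 0.0508 and 0.289 with limma on log2(TPM + 1)).

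For arsenite UCKL1-AS1 (0.87), PSMG3-AS1 (0.72), OSER1-AS1 (0.66), FBXL19-AS1 (0.64) and SPAG5-AS1 (0.62) were higher in Dmr-PERK cells. CELF2-AS1 (-1.53), TSPEAR-AS1 (-1.20), SLFNL1-AS1 (-0.93, and -0.71 without the Parental library that stood apart), NR2F2-AS1 (-0.72) and ZSWIM8-AS1 (-0.59) were lower. CELF2-AS1 and NR2F2-AS1 also differed between the untreated lines (3.29 and 0.90).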

How the results depend on the processing

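Of the 51 counts of members called, all 51 stayed within 1.5 times under DESeq2, RLE factors and the replicate block, and 50 without the filter on low counts. With limma on log2(TPM + 1) and log2(TPM + 0.1) the counts were 39 and 36 for thapsigargin at 2 h in Dmr-PERK cells (59 in the edgeR test) and 4 and 3 for dimerizer at 4 h in Parental cells (16), and with the latter 22 for arsenite at 2 h in Dmr-PERK cells (34). The 7 members whose dimerizer effect changed with time in Parental cells became 4 without the filter, 1 with limma at both pseudocounts, 2 to 7 with a replicate left out and 13 without the library that stood apart, which also gave 1 call for dimerizer over 4 to 24 h there. With a replicate left out the counts ran from 8 to 17 for dimerizer and 19 to 29 for arsenite at 2 h in Dmr-PERK cells, 6 to 16 for dimerizer at 4 h and 17 to 22 for arsenite at 2 h in Parental cells, and 28 to 43 for the line difference of thapsigargin. The cause was not tested. Replicate numbers did not pair the wells (mean correlation of deviations 2e-04 for the same number and -1e-04 for others), and the fit with the replicate block called 97 members for dimerizer, 108 for thapsigargin and 117 for arsenite in Dmr-PERK cells, against 98, 108 and 117. Of the named 4 to 24 h and line-difference values recomputed, those of the members and partners compared in the text included, 1 changed sign after being called: EPB41L4A-AS1 with arsenite in Dmr-PERK cells, -0.33 in the edgeR test and 0.03 with limma at both pseudocounts. On the log2(TPM + 1) scale low members had smaller values, such as 0.68 for KLHL30-AS1 with dimerizer, while EPB41L4A-AS1 rose by 1.73 with thapsigargin. Whether reads were assigned by strand, and few counts in untreated wells for KLHL30-AS1 and LURAP1L-AS1, limit what the pairs and folds can show.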
